A study of Mus musculus with 15 samples.

Results

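Big tumour nodules of 3 mice were set against the livers of normal mice: of the 15 samples of the series, the 3 big nodules and 3 normal livers, 6 in all, were taken by their labels. The nodules came from C57BL/6J mice number 8, 15 and 25, which had been injected intraperitoneally with diethylnitrosamine (DEN) and carbon tetrachloride (CCl4), and each is 1 hepatocellular carcinoma (HCC) nodule called big by the submitters. The normal livers came from C57BL/6J mice injected intraperitoneally with corn oil. The other samples were small nodules of the same tumour-bearing mice, set beside the big ones at the end, and thymi, which were left out. The liver of the tumour-bearing mice outside the nodules was not analysed here, so tumour, treatment and injured surroundings cannot be told apart. The labels give neither the sex nor the age of the mice nor how large a big nodule was. Poly(A) RNA of each sample was sequenced once. The deposited values are FPKM, fragments mapped to a gene divided by its length and by the total mapped, so that a level is per length and relative to the whole library. The table numbers the liver samples 2, 3 and 5, while their titles name mice 2, 3 and 3. Whether all 3 livers are separate animals is therefore not known, and p-values measure the spread between these samples.

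DEN is an alkylating procarcinogen and CCl4 a hepatotoxin. Both are activated in hepatocytes by cytochrome P450 enzymes, above all Cyp2e1, and repeated injury and regrowth lead to fibrosis and carcinoma. Hepatocytes of a normal lobule divide their work by position, with ammonia detoxification to glutamine and drug metabolism near the central vein and urea and glucose synthesis near the portal vein. In male mice a pulsatile growth hormone signal adds a set of male-biased secreted proteins and steroid-metabolising enzymes. Carcinomas are known to lose parts of this programme and to regain genes of the fetal liver.

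Liver markers and Y-linked genes were present throughout. Transcripts of the Y-linked helicase Ddx3y were present in all 6 samples, at 18.6, 19.4 and 18.4 FPKM in the nodules, against 15.9, 19.5 and 19.3 FPKM in the livers, and 0 of the 4 Y-linked genes tested passed as deposited. Albumin (Alb), the main plasma protein made by hepatocytes, was the most abundant named transcript, with 23615, 22442 and 26620.0 FPKM in the nodules, against 10578, 11757 and 12804 FPKM in the livers (log2 difference 1.05 ± 0.19, limma adjusted p 0.00367). Hnf4a, the transcription factor that maintains hepatocyte identity, stood at 131, 119 and 124 FPKM in the nodules, against 127, 115 and 115 FPKM in the livers, and the groups overlapped. Both hepatocyte markers were thus abundant in every sample. T cell markers were low, and for Cd3e, a chain of the T cell receptor complex, the values were 0.506, 0.231 and 1.05 FPKM in the nodules, against 0.0818, 0.133 and 0.0675 FPKM in the livers.

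Differences covered a large part of the transcriptome. Of 10209 genes with at least 1 FPKM in at least 3 of the 6 samples, 2317 were higher (22.7% of those tested) and 1362 lower (13.3%) in big nodules, together 36.0%, at an adjusted p under 0.05 by limma on log2(FPKM + 1). In 31.1% of the genes all big nodules lay above all livers, and in 19.1% all lay below. Of the genes tested, 574 reached the filter with every liver under 1 FPKM and 132 with every nodule under it, so that their groups could only lie apart. That holds for each gene tested below whose livers, or whose nodules, all lay under 1 FPKM, also where it is not said again. Where many members of a list reached the filter through 1 group alone, counts are given without the filter, over all members with any FPKM above 0. Without it, 21.4% of 13685 genes were higher and 10.6% lower, with a median difference of 0.091. Counts of list members below are to be read against these shares, or against 22.7% and 13.3% with the filter. The differences exceeded 2-fold for 973 genes that rose and 552 that fell, 4-fold for 243 and 192, and 16-fold for 35 and 35, on the log2(FPKM + 1) scale. Each nodule held more genes at 1 FPKM or above, 10100, 10264 and 10204, than any liver, with 9389, 9453 and 9449. The balance between rises and falls depended on the scaling, because FPKM are relative. Rises made up 63.0% of the calls on the deposited scale, 75.1% after rescaling to equal FPKM sums, and 47.5% after median-of-ratios scaling. They made up 50.2% after quantile normalization and 53.1% after equal sums without mitochondrially encoded and major urinary protein genes. The median difference of all genes was 0.086 as deposited, 0.21 with equal sums, -0.053 after median-of-ratios scaling and -0.052 after quantile normalization, and differences below are as deposited.

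**Figure D1:**
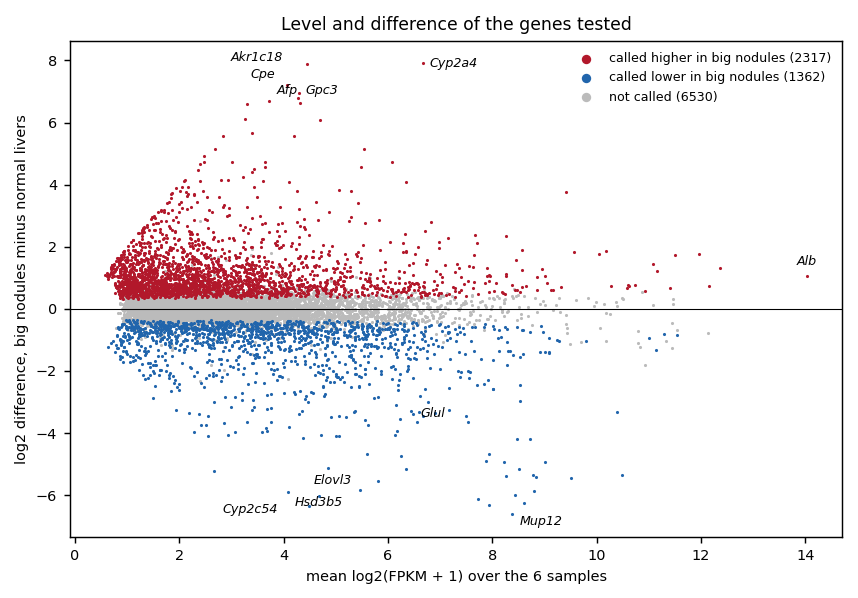
Each point is 1 of the 10209 genes tested, with the mean log2(FPKM + 1) over the 6 samples on the horizontal axis and the log2 difference, big nodules minus normal livers, on the vertical axis. The 2317 genes called higher (red) and 1362 called lower (blue) lie on both sides of the 6530 genes not called (grey), and the named genes reach beyond 5 log2 units in both directions.

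The largest rises were in genes at low levels in these normal livers. Cyp2a4, a steroid hydroxylase more abundant in female than in male mouse liver, had 2061, 867 and 2169 FPKM in the nodules, against 5.41, 5.8 and 5.41 FPKM in the livers (log2 difference 7.91 ± 0.33, limma adjusted p 4.9e-06). Akr1c18, a reductase that inactivates progesterone, had 320.5, 340.2 and 337 FPKM in the nodules, against 0.816, 0.377 and 0.151 FPKM in the livers (log2 difference 7.87 ± 0.18, limma adjusted p 2.99e-07). The nodule values of Akr1c18 lay within 0.086 log2 units of each other, while those of Cyp2a4 spanned 1.32 units with the nodule of mouse 15 lowest. Cpe, a carboxypeptidase of prohormone processing, had 203, 216 and 188 FPKM in the nodules, against 0.347, 0.422 and 0.362 FPKM in the livers (log2 difference 7.204 ± 0.12, limma adjusted p 1.24e-07). Ly6d, a lipid-anchored surface protein, had 182, 239 and 243 FPKM in the nodules, against 1.18, 0.688 and 0.492 FPKM in the livers. Klrb1b, a lectin-like inhibitory receptor known from natural killer cells, had 86.5, 79.6 and 71.1 FPKM in the nodules, against 0.0854, 0.255 and 0.135 FPKM in the livers. The rule that picked these genes required that nodules and livers not overlap. The summed level of natural killer cell markers was 9.31, 4.77 and 16.5 FPKM in the nodules and 1.17, 1.96 and 3.24 FPKM in the livers. The mucosal trefoil peptide Tff3 had 285, 152 and 221 FPKM in the nodules, against 4.16, 3.38 and 0.373 FPKM in the livers (log2 difference 6.08 ± 0.48, limma adjusted p 7.91e-05), with liver 5 lower than the other livers. The rest of the 15 largest rises were Gpc3, Afp, Tspan8, Spink1, Wfdc15b, Erich4, Cyp2b9, Ifi27l2b and Bex1, with log2 differences between 6.80 and 5.13.

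**Figure D2:**
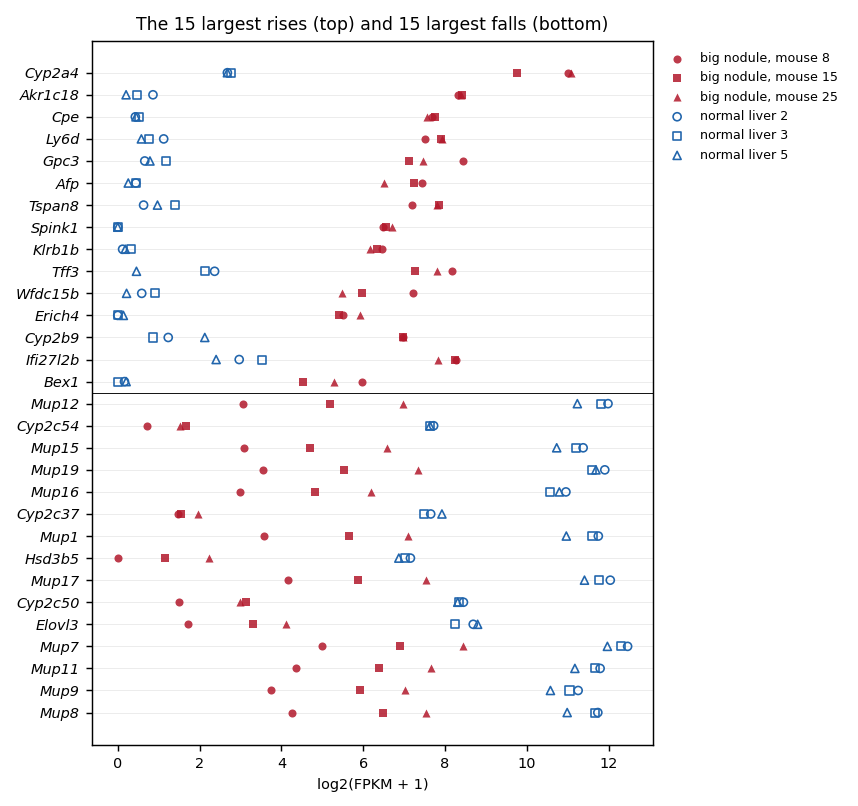
Levels on the log2(FPKM + 1) scale of the 15 genes with the largest rises (above the line) and the 15 with the largest falls (below it), each row 1 gene, with big nodules as filled and normal livers as open symbols. Only genes whose groups do not overlap were picked, and the nodules of mice 8, 15 and 25 stand in that order for the Mup genes.

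Oncofetal and liver cancer markers were higher in part. Of 20 listed genes 14 were in the table, and without the filter 9 of these were higher and 0 lower, with a median log2 difference of 1.27. With the filter 11 were tested, 5 of which had every liver under 1 FPKM. Afp, alpha-fetoprotein, the fetal counterpart of albumin, had 173, 149.8 and 90.6 FPKM in the nodules, against 0.358, 0.353 and 0.195 FPKM in the livers (log2 difference 6.69 ± 0.23, limma adjusted p 2.15e-06). Gpc3, a heparan sulfate proteoglycan of the cell surface used as a tissue marker of HCC, had 345, 137 and 176 FPKM in the nodules, against 0.58, 1.25 and 0.726 FPKM in the livers (log2 difference 6.80 ± 0.32, limma adjusted p 9.14e-06). The nodules ranked differently for these markers: that of mouse 8 had the most Afp and Gpc3, and that of mouse 25 the least Afp. Golm1, a Golgi membrane protein, had 30.1, 27.8 and 26.4 FPKM in the nodules, against 0.583, 0.985 and 0.439 FPKM in the livers (log2 difference 4.14 ± 0.16, limma adjusted p 3.13e-06). The progenitor surface protein Prom1 had 8.65, 13.1 and 14.6 FPKM in the nodules, against 0.166, 0.315 and 0.22 FPKM in the livers (log2 difference 3.38 ± 0.19, limma adjusted p 1.88e-05). The Myc family factor Mycn and the guidance receptor Robo1 were higher as well, with log2 differences of 1.298 and 1.23 (limma adjusted p 0.000781 and 0.00087). Epcam and Sox9, which mark progenitor cells and bile ducts, did not pass, and Igf2, the fetal growth factor, was at 4.32, 0 and 0.00849 FPKM in the nodules and at 0 in all livers, so that it was above 0.01 FPKM in nodule 8 only.

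A set of genes was on in every nodule and nearly silent in every liver. With at least 5 FPKM in all 3 nodules and under 0.1 FPKM in all 3 livers there were 13 genes. Spink1, a secreted trypsin inhibitor, had 89, 93.8 and 104 FPKM in the nodules and was listed at 0 in each liver. Gldn, an adhesion protein known from the nodes of Ranvier, had 28.6, 29.4 and 31.6 FPKM in the nodules, against 0.0204, 0 and 0 FPKM in the livers. Kif5c, a kinesin motor of neurons, had 28, 26 and 23.3 FPKM in the nodules, against 0.08, 0.0574 and 0.0127 FPKM in the livers. These levels were even over the nodules and close to 0 in the livers. Cdh17, a cadherin of intestinal epithelium, had 16.2, 18.8 and 16.3 FPKM in the nodules, against 0.0213, 0.023 and 0 FPKM in the livers. Cdhr2, a cadherin of its microvilli, had 13.1, 9.54 and 11.4 FPKM in the nodules, against 0.0462, 0.0249 and 0.0223 FPKM in the livers. The range over the nodules was at most 0.42 log2 units for these genes. The other 8 were Erich4, the chemokine Cxcl17, the X-linked Bex2 and Tceal5, the sulfotransferase Sult2a2, the spindle protein Psrc1, and the GTPase-activating proteins Arhgap22 and Rasal1. Of these, Sult2a2, Bex2, Cxcl17 and Psrc1 varied more, with ranges of 2.08, 1.73, 1.28 and 1.24 log2 units over the nodules. The opposite rule, at least 5 FPKM in all livers and under 0.5 FPKM in all nodules, gave 2 genes. They were AC149222.1, with 0, 0 and 0.0993 FPKM in the nodules, against 36.3, 31 and 46.6 FPKM in the livers, and Susd4, a membrane regulator of complement, with 0.238, 0.289 and 0.183 FPKM in the nodules, against 12.5, 10.8 and 9.22 FPKM in the livers.

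The largest falls were in major urinary proteins (Mup), pheromone-binding lipocalins that liver secretes, and in cytochromes P450. The 19 Mup genes of the table held 0.694%, 1.31% and 1.75% of all FPKM in nodules 8, 15 and 25, against 14.3%, 13.5% and 11% in livers 2, 3 and 5. Mup12 had 7.41, 35.3 and 124 FPKM in the nodules, against 4049, 3604 and 2408 FPKM in the livers (log2 difference -6.61 ± 0.83, limma adjusted p 0.000651). Mup7, one of the most abundant, had 31.1, 118 and 347 FPKM in the nodules, against 5645, 5016 and 4008 FPKM in the livers (log2 difference -5.46 ± 0.73, limma adjusted p 0.000879). Mup genes are near-identical copies, so that reads can be divided among them in more than 1 way, and single Mup values are uncertain. How reads that match several copies were counted is not given in the sources used here. Mup20, which is more divergent, had 1845, 2622 and 2681 FPKM in the nodules, against 3069, 5158 and 3265 FPKM in the livers (log2 difference -0.66, limma adjusted p 0.0796). Mup20 lay below the livers in every nodule and did not pass. Outside this family, Hsd3b5, a ketosteroid reductase of male liver, had 0, 1.24 and 3.68 FPKM in the nodules, against 141, 129.5 and 116 FPKM in the livers. Elovl3, an elongase of very long fatty acids, had 2.27, 8.97 and 16.3 FPKM in the nodules, against 412, 302 and 444 FPKM in the livers. The P450 genes Cyp2c54, Cyp2c37 and Cyp2c50, which oxidise drugs and fatty acids, fell by 6.35, 6.02 and 5.82 on the log2 scale, and Cyp2c54 stood at 0.639, 2.2 and 1.88 FPKM in the nodules, against 210.1, 197 and 197 FPKM in the livers.

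Male-biased liver genes fell, and female-biased genes were mixed. Of 20 male-biased genes tested, 19 were lower and 0 higher, with a median log2 difference of -3.64. Cyp7b1, an oxysterol hydroxylase, had 1.08, 4.64 and 9.05 FPKM in the nodules, against 195, 215 and 118 FPKM in the livers (log2 difference -5.13 ± 0.52, limma adjusted p 0.000241). Slco1a1, an organic anion carrier, had 0.677, 7.33 and 7.22 FPKM in the nodules, against 85.7, 94.3 and 78.4 FPKM in the livers (log2 difference -4.16 ± 0.56, limma adjusted p 0.000928). Of 27 female-biased genes, 12 were higher and 3 lower without the filter, with a median of 0.25. Of the 17 that reached it, 5 had every liver under 1 FPKM. Cyp2b9 had 125, 124 and 124 FPKM in the nodules, against 1.35, 0.81 and 3.37 FPKM in the livers (log2 difference 5.56 ± 0.29, limma adjusted p 1.42e-05), and the nodules agreed within 0.016 log2 units. Abcd2, a peroxisomal carrier of very long fatty acids, had 35, 46 and 39.1 FPKM in the nodules, against 1.06, 0.72 and 1.78 FPKM in the livers (log2 difference 4.25 ± 0.20, limma adjusted p 9.12e-06). Female-biased genes at or near 0 in both groups included Cyp3a41a, Sult3a1 and A1bg, and 3 members fell, Cyp4a10, Cyp4a14 and Sult2a7. Mup20 was the male-biased gene that did not pass, and it too lay below every liver in every nodule.

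Growth hormone signalling genes were uneven. Ghr, the growth hormone receptor, had 17, 16.4 and 18.1 FPKM in the nodules, against 76, 81.7 and 65.3 FPKM in the livers (log2 difference -2.04 ± 0.14, limma adjusted p 4.03e-05). Igf1, the growth factor that growth hormone induces in liver, had 14.2, 22.1 and 9.42 FPKM in the nodules, against 67.1, 72.1 and 46.6 FPKM in the livers (log2 difference -2.01 ± 0.30, limma adjusted p 0.00145). Igfals, which stabilises circulating IGF complexes, had 6.8, 8.15 and 4.46 FPKM in the nodules, against 44.9, 26 and 28.7 FPKM in the livers (log2 difference -2.19 ± 0.26, limma adjusted p 0.000473). Each liver was above each nodule for the receptor, the hormone and its carrier. The kinase Jak2 and the phosphatase Ptpn1 were slightly higher, with log2 differences of 0.39 and 0.46, and the feedback inhibitor Socs3 rose with 3.86, 4.4 and 3.26 FPKM in the nodules, against 1.47, 0.863 and 1.1 FPKM in the livers (log2 difference 1.18 ± 0.15, limma adjusted p 0.000814). Stat5b, which carries the signal to the nucleus, was at 14.8, 8.29 and 9.96 FPKM in the nodules, against 9.02, 7.38 and 17.5 FPKM in the livers, and the groups overlapped. In all, 4 of 11 members were higher and 3 lower as deposited, and 2 were higher and 4 lower after median-of-ratios scaling. The rises came to 1 under quantile normalization and without nodule 15, liver 2 or liver 5, and to 2 without nodule 25 or liver 3. Socs3 kept its call under each alternative run.

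Genes of the pericentral zone fell, and those of the periportal zone did not move as a group. Of 13 pericentral and Wnt target genes tested, 11 were lower and 0 higher. Glul, glutamine synthetase, which in normal liver is limited to the hepatocytes around the central vein, had 13.6, 24.2 and 56.8 FPKM in the nodules, against 286, 294 and 278 FPKM in the livers (log2 difference -3.37 ± 0.43, limma adjusted p 0.000692). Oat, ornithine aminotransferase, had 4.61, 14.2 and 36.2 FPKM in the nodules, against 389, 385 and 408 FPKM in the livers (log2 difference -4.75 ± 0.58, limma adjusted p 0.000549). Slc1a2, a glutamate transporter of the same cells, had 0.0269, 0.338 and 1.1 FPKM in the nodules, against 13.4, 14.8 and 12.9 FPKM in the livers (log2 difference -3.37 ± 0.25, limma adjusted p 5.43e-05). All of these were below every liver in every nodule. Notum, a Wnt-inactivating esterase and Wnt target, had 1.44, 2.16 and 2.74 FPKM in the nodules, against 10.6, 11.9 and 13.4 FPKM in the livers (log2 difference -2.07 ± 0.18, limma adjusted p 0.000125). The nodules ranked alike for Glul, Oat and Slc1a2, with mouse 8 lowest and mouse 25 highest, and nodule 8 was lowest for 12 of the 13 genes. Over all genes tested nodule 8 was lowest in 36.3%, and among the 192 that fell at least 4-fold in 149. Axin2 and Lgr5, further Wnt targets, were below the filter, with Lgr5 at 0.063, 0.121 and 0.192 FPKM in the nodules, against 1, 0.999 and 1.63 FPKM in the livers. The Wnt pathway regulators Znrf3 and Rnf43 did not pass. Of 17 periportal genes, 5 were higher and 5 lower (29.4% each, against 22.7% and 13.3% of all genes). Apoa4, a lipoprotein component, had 1912, 3295 and 2569.7 FPKM in the nodules, against 183, 264 and 129 FPKM in the livers (log2 difference 3.77 ± 0.30, limma adjusted p 7.88e-05). Cdh1, E-cadherin, had 65.4, 43.8 and 45.2 FPKM in the nodules, against 6.17, 8.25 and 8.97 FPKM in the livers (log2 difference 2.57 ± 0.20, limma adjusted p 7.69e-05). Cyp2f2 had 22.2, 73.8 and 56.6 FPKM in the nodules, against 482, 394 and 446 FPKM in the livers (log2 difference -3.25 ± 0.39, limma adjusted p 0.000526), and the histidine and glutamine catabolic genes Hal and Gls2 did not pass.

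Of 22 hepatocyte transcription factors tested, 2 were higher (9.09%, against 22.7% of all genes) and 4 lower (18.2%, against 13.3%). Over the scalings 1 to 4 were higher and 4 to 7 lower. Foxa3 had 45.4, 38 and 65.6 FPKM in the nodules, against 21.3, 23.1 and 14.9 FPKM in the livers (log2 difference 1.27 ± 0.24, limma adjusted p 0.00448). Nr1i3, the constitutive androstane receptor that controls drug-metabolising enzymes, had 4.57, 7.83 and 3.97 FPKM in the nodules, against 54, 34 and 35.5 FPKM in the livers (log2 difference -2.72 ± 0.26, limma adjusted p 0.00018). Onecut2 had 0.834, 2.11 and 0.975 FPKM in the nodules, against 7.02, 8.79 and 4.56 FPKM in the livers (log2 difference -1.76 ± 0.27, limma adjusted p 0.00162). Foxa3 lay above the livers in each nodule, and Nr1i3 and Onecut2 lay below them. The bile acid receptor Nr1h4 had 14.3, 35.5 and 28.2 FPKM in the nodules, against 65.7, 58.1 and 62.9 FPKM in the livers (log2 difference -1.32 ± 0.29, limma adjusted p 0.0102), with nodule 8 lowest. For Cebpa, Ppara, Rxra and Prox1 the groups overlapped.

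Abundant secreted proteins rose more often than they fell. Of 24 genes, 11 were higher and 2 lower. Alb took 6.97%, 6.67% and 8.00% of all FPKM in the nodules, against 2.80%, 3.13% and 3.52% in the livers, and its rise vanished under quantile normalization, which ties the top rank of every library. Apoa1, the main protein of high-density lipoprotein, had 8083, 7023 and 10047 FPKM in the nodules, against 3059, 3593 and 3433 FPKM in the livers (log2 difference 1.31 ± 0.20, limma adjusted p 0.00154). Ahsg, fetuin A, had 7356, 7489 and 7274 FPKM in the nodules, against 2316, 2144 and 1999.9 FPKM in the livers (log2 difference 1.78 ± 0.16, limma adjusted p 0.000133). Trf, the iron carrier transferrin, had 5111, 5283 and 5476 FPKM in the nodules, against 1594, 1556 and 1598 FPKM in the livers (log2 difference 1.74 ± 0.15, limma adjusted p 0.000116). Every nodule exceeded every liver for these carriers. Kng1, kininogen, had 2514, 2292 and 1924 FPKM in the nodules, against 648, 627 and 547 FPKM in the livers (log2 difference 1.88 ± 0.17, limma adjusted p 0.000137). Ttr, Apoe, Apoh and Rbp4 overlapped between the groups, and Apoa2 was lower (log2 difference -0.84, limma adjusted p 0.00493), though not called under quantile normalization. The nodules varied most in Serpina6, the corticosteroid carrier, at 164, 29 and 306 FPKM in the nodules, against 90.8, 83.9 and 92.9 FPKM in the livers.

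P450 genes and conjugating enzymes of drug metabolism were lower more often than higher. Of 22 P450 genes, 16 were lower and 1 higher, with a median log2 difference of -1.74. Cyp2e1, which activates DEN and CCl4, had 22.6, 137 and 177 FPKM in the nodules, against 1564, 1610.4 and 1382 FPKM in the livers (log2 difference -4.19 ± 0.67, limma adjusted p 0.00211). Cyp1a2 had 11, 14.9 and 25.8 FPKM in the nodules, against 245, 334 and 292 FPKM in the livers (log2 difference -4.07 ± 0.28, limma adjusted p 4.56e-05). Nodule 8 was lowest in both, and in 17 of the 22 P450 genes. It was also lowest in 36.3% of all genes tested and in 149 of the 192 genes that fell at least 4-fold. Cyp2d26 was the member that rose (log2 difference 0.62, limma adjusted p 0.0157), and its call was lost after median-of-ratios scaling (limma adjusted p 0.0594), without liver 3 and without nodule 15. Cyp2a5 varied over the nodules, with 335, 53.1 and 397 FPKM in the nodules, against 139, 159.5 and 192 FPKM in the livers. The Cyp2a, Cyp2b and Cyp2c genes are close paralogs, and reads could be shared between copies. Among 27 conjugating enzymes, 11 were lower and 2 higher. Among the falls were glucuronosyltransferases, as Ugt2b1 with 41.8, 37.6 and 29.7 FPKM in the nodules, against 278, 267 and 237 FPKM in the livers (log2 difference -2.82 ± 0.16, limma adjusted p 2.27e-05). Glutathione transferases went both ways, with Gsta1 at 73.3, 23.5 and 35 FPKM in the nodules, against 4.56, 9.63 and 13.5 FPKM in the livers (log2 difference 2.09, limma adjusted p 0.00943). Gsta3 had 86.1, 61.7 and 85.5 FPKM in the nodules, against 322, 362 and 387 FPKM in the livers (log2 difference -2.20, limma adjusted p 8.07e-05).

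Targets of NRF2, the transcription factor of the antioxidant response, rose in part. Of 20 tested, 11 were higher and 3 lower, and 1 was lower without nodule 15, liver 2 or liver 3. G6pdx, the entry enzyme of the pentose phosphate pathway, had 10.9, 10.7 and 5.77 FPKM in the nodules, against 1.2, 1.28 and 1.34 FPKM in the livers (log2 difference 2.11 ± 0.22, limma adjusted p 0.00029). Srxn1, sulfiredoxin, had 49.7, 33.1 and 41.5 FPKM in the nodules, against 10.6, 10.8 and 15.4 FPKM in the livers (log2 difference 1.68 ± 0.20, limma adjusted p 0.000546). Osgin1 had 77.3, 29.8 and 75.1 FPKM in the nodules, against 8.03, 6.56 and 5.63 FPKM in the livers (log2 difference 2.89 ± 0.35, limma adjusted p 0.00053). All nodules were above all livers in each case. The carbonyl reductase Cbr3 had 13.2, 4.78 and 15.4 FPKM in the nodules, against 0.619, 0.965 and 0.694 FPKM in the livers (log2 difference 2.65 ± 0.36, limma adjusted p 0.000934). For Osgin1 and Cbr3 nodule 15 was the lowest, and Cbr3, with every liver under 1 FPKM, could only lie apart. Nqo1 and Hmox1, the most used readouts of this response, had log2 differences of 0.98 and 0.94 (limma adjusted p 0.0274 and 0.0179), and Nqo1 lost its call without any 1 of the livers, nodule 8 or nodule 15. Gclm, Txnrd1 and Me1 were lower, and Me1, malic enzyme, stood at 13.2, 15.5 and 25 FPKM in the nodules, against 78.9, 87.9 and 153 FPKM in the livers (log2 difference -2.49, limma adjusted p 0.000558), so that the list did not move 1 way.

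Bile acid synthesis fell. Of 21 members, 13 were lower and 2 higher. Cyp7a1, the rate-limiting enzyme of the classical pathway, had 0.4, 3.81 and 3.21 FPKM in the nodules, against 43.5, 54.4 and 41.9 FPKM in the livers (log2 difference -3.96 ± 0.43, limma adjusted p 0.000316). Cyp8b1, which sets the share of cholic acid, had 3.97, 17.6 and 24.8 FPKM in the nodules, against 193, 131 and 225 FPKM in the livers (log2 difference -3.75 ± 0.56, limma adjusted p 0.00149). The uptake carrier Slco1b2 had 5.24, 26.9 and 35 FPKM in the nodules, against 259, 309.8 and 284 FPKM in the livers. For each of these genes the highest nodule stayed far below the lowest liver. The sodium-dependent carrier Slc10a1 had 25, 63.6 and 27.6 FPKM in the nodules, against 163, 158 and 139 FPKM in the livers. Cyp39a1, an oxysterol hydroxylase, moved the other way with 49.8, 45.5 and 24 FPKM in the nodules, against 3.29, 6.88 and 8.65 FPKM in the livers (log2 difference 2.50 ± 0.36, limma adjusted p 0.00126), as did the canalicular pump Abcc2 (log2 difference 0.39, limma adjusted p 0.0345), whose call was lost without any 1 of the 6 samples. The nodule of mouse 8 was the lowest for Cyp7a1, Cyp8b1 and both uptake carriers.

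Amino acid catabolism was lower in 19 of 33 genes and higher in 1. Gnmt, which disposes of surplus methyl groups, had 144, 171 and 155 FPKM in the nodules, against 798, 759 and 1049 FPKM in the livers (log2 difference -2.45 ± 0.17, limma adjusted p 4.65e-05). Hpd, of tyrosine breakdown, had 113, 116 and 71.5 FPKM in the nodules, against 591, 479 and 530.3 FPKM in the livers (log2 difference -2.43 ± 0.21, limma adjusted p 0.000123), and Otc and Asl of the urea cycle had log2 differences of -1.56 and -1.52 (limma adjusted p 0.000853 and 0.000582). Arg1, the last step of that cycle, had 549, 709 and 457 FPKM in the nodules, against 554, 556 and 622 FPKM in the livers, and the groups overlapped. Glud1, glutamate dehydrogenase, was the member that rose (log2 difference 0.59, limma adjusted p 0.0242), and its call was lost after median-of-ratios scaling (limma adjusted p 0.0742) and without any 1 of the livers. The serine synthesis enzymes were higher. Of these, Phgdh and Psat1 were nearly silent in the livers and, with every liver under 1 FPKM, could only lie apart. Phgdh had 7.97, 4.3 and 9.57 FPKM in the nodules, against 0.0384, 0 and 0 FPKM in the livers (log2 difference 2.97 ± 0.24, limma adjusted p 8.46e-05). Psat1 had 10.3, 8.52 and 7.44 FPKM in the nodules, against 0.0896, 0.144 and 0.0855 FPKM in the livers (log2 difference 3.13 ± 0.14, limma adjusted p 7.15e-06). Psph had 7.54, 7.14 and 6.84 FPKM in the nodules, against 1.7, 2.25 and 1.58 FPKM in the livers (log2 difference 1.53 ± 0.14, limma adjusted p 0.000134). The mitochondrial one-carbon enzyme Mthfd1l rose as well (log2 difference 2.16, limma adjusted p 0.00163), while the cytosolic and other folate enzymes Shmt1, Shmt2, Mthfd1 and Aldh1l1 fell. Trib3, a pseudokinase induced by the stress factor ATF4, had 38.9, 54.9 and 59.6 FPKM in the nodules, against 1.22, 0.625 and 2.28 FPKM in the livers (log2 difference 4.49 ± 0.27, limma adjusted p 2.78e-05). Atf4 mRNA itself was at 54.5, 51.8 and 62.9 FPKM in the nodules, against 52.9, 47.2 and 55 FPKM in the livers. Over the whole serine, one-carbon and ATF4 list, 10 of 25 were higher and 4 lower without the filter, and 7 of 20 were higher and 5 lower with it. The 5 falls came to 2 with equal sums and without nodule 8, nodule 15, liver 2 or liver 5, and of the folate enzymes named Aldh1l1 kept its call under each of these.

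Lipid genes moved in both directions. Fatty acid oxidation and ketogenesis genes were lower in 13 of 26 and higher in 2. Cpt2, which admits fatty acids to the mitochondrial matrix, had 18, 24.1 and 28.8 FPKM in the nodules, against 62, 56.5 and 63.6 FPKM in the livers (log2 difference -1.35 ± 0.18, limma adjusted p 0.000919). Etfdh, which passes their electrons on, had 15.9, 19.6 and 15.1 FPKM in the nodules, against 43.3, 39.2 and 43.1 FPKM in the livers (log2 difference -1.27 ± 0.14, limma adjusted p 0.000381). Among 30 genes of synthesis and storage, 8 were higher and 8 lower (26.7% each, against 22.7% and 13.3% of all genes). Scd2, a stearoyl-CoA desaturase of brain and fetal liver, had 53.6, 70.3 and 68.3 FPKM in the nodules, against 1.41, 1.24 and 1.61 FPKM in the livers (log2 difference 4.74 ± 0.15, limma adjusted p 1.37e-06). Scd1, the adult liver form, had 631, 1243 and 809 FPKM in the nodules, against 1296, 1132 and 1598 FPKM in the livers (log2 difference -0.63, limma adjusted p 0.105). Lipoprotein lipase, Lpl, which adult hepatocytes lack, had 87.7, 39.5 and 19.5 FPKM in the nodules, against 1.58, 1.74 and 1.96 FPKM in the livers (log2 difference 3.93 ± 0.45, limma adjusted p 0.000427). Scd2 and Lpl separated the groups, and Scd1 did not. Of the fatty acid binding proteins, Fabp5 had 101, 62.6 and 53.8 FPKM in the nodules, against 4.72, 3.77 and 3.93 FPKM in the livers (log2 difference 3.79 ± 0.23, limma adjusted p 2.85e-05). Fabp1, the liver form, had 873, 1481 and 2236 FPKM in the nodules, against 3666, 3305 and 3792 FPKM in the livers (log2 difference -1.33 ± 0.32, limma adjusted p 0.0138), and was not called under quantile normalization. Fabp4, an adipocyte and endothelial form, had 16.7, 20.8 and 15.7 FPKM in the nodules, against 3.34, 3.67 and 3.98 FPKM in the livers (log2 difference 1.999, limma adjusted p 5.79e-05). Adipocyte markers summed to 3.02, 12.6 and 17.7 FPKM in the nodules and 8.2, 3.45 and 9.98 FPKM in the livers. Of the 2 tested 1 was higher and 0 lower, while Plin1 was at 0 in all 6 samples and Adipoq at 0 in all 3 nodules. The droplet proteins Cidea and Cidec rose (1.67 and 1.62 on the log2 scale), Cidec being also on the list of adipocyte markers, and Plin5 fell by 1.75. Thrsp, a lipogenic regulator, had 4.46, 31.2 and 60.8 FPKM in the nodules, against 217, 259.5 and 298 FPKM in the livers (log2 difference -3.54 ± 0.76, limma adjusted p 0.00865), with nodule 8 lowest. Cholesterol synthesis genes were higher in 8 of 23 and lower in 0 as deposited, against 7 and 3 after median-of-ratios scaling. Sqle, squalene epoxidase, had 31.4, 53.8 and 57.8 FPKM in the nodules, against 14.5, 13.8 and 12.5 FPKM in the livers (log2 difference 1.69 ± 0.23, limma adjusted p 0.000919).

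Carbohydrate enzymes with a liver form and another form differed in part. Pkm, the pyruvate kinase gene of fetal and proliferating tissue, had 10.6, 17.1 and 18.1 FPKM in the nodules, against 3.6, 3.98 and 4.31 FPKM in the livers (log2 difference 1.68 ± 0.20, limma adjusted p 0.000535). Pklr, the liver gene, had 24, 62.9 and 65.8 FPKM in the nodules, against 67.6, 69.6 and 89.5 FPKM in the livers (log2 difference -0.68, limma adjusted p 0.184). Pklr lay below the livers in every nodule and did not pass. The hexokinase genes Hk1 and Hk2 stayed below the filter, with Hk2 at no more than 0.904 FPKM. G6pc, glucose-6-phosphatase, had 183, 61.4 and 60.5 FPKM in the nodules, against 408, 439.6 and 643 FPKM in the livers (log2 difference -2.45 ± 0.42, limma adjusted p 0.00298). The cytosolic Pck1 had 879, 414 and 395 FPKM in the nodules, against 799, 837 and 1103 FPKM in the livers (log2 difference -0.79, limma adjusted p 0.0892). The mitochondrial form Pck2 had 1.71, 2.03 and 2.3 FPKM in the nodules, against 0.165, 0.234 and 0.243 FPKM in the livers (log2 difference 1.31 ± 0.12, limma adjusted p 0.000136). G6pc separated the groups, Pck2, with every liver under 1 FPKM, could only lie apart, and Pck1 did not pass. Gys2, liver glycogen synthase, varied from the liver range in nodule 8 to about 4 times as much in nodule 25, with 50.2, 95.7 and 229 FPKM in the nodules, against 50.3, 47.9 and 54.3 FPKM in the livers. In all, 6 of 20 glycolytic genes were higher (30.0%, against 22.7% of all genes) and 1 lower (5.0%, against 13.3%). Of 18 genes of gluconeogenesis and glycogen, 2 were higher (11.1%) and 5 lower (27.8%). Without liver 3 the glycolytic rises came to 3, and without liver 2 the falls of the second list came to 3.

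Respiratory chain genes fell in part. Of 27 nuclear genes, 12 fell and 0 rose, with a range of 7 to 21 falls over the scalings and 7 without nodule 8, nodule 15 or liver 5. Sdha, of complex II, had 67.1, 75.3 and 85.4 FPKM in the nodules, against 135, 127 and 158 FPKM in the livers (log2 difference -0.88 ± 0.15, limma adjusted p 0.00336). Cox5b, of complex IV, had 34.4, 35.5 and 33.6 FPKM in the nodules, against 63, 53.5 and 57.9 FPKM in the livers (log2 difference -0.73 ± 0.13, limma adjusted p 0.00312). Of the 13 mitochondrially encoded genes, 3 passed, all lower, with 2 to 6 over the scalings, 6 without nodule 15 and 1 without any 1 of the livers. The calls of mt-Co2 and mt-Nd3 were lost without any 1 of the livers. The mitochondrially encoded share of all FPKM was 6.93%, 8.30% and 2.88% in the nodules, against 10.1%, 11.1% and 7.83% in the livers. Nodule 25 was the lowest nodule for all 13, against 32.7% of all genes tested, and without it the median log2 difference of the 13 was -0.54 instead of -1.05. For mt-Atp6 the values were 2509.6, 2760.4 and 159 FPKM in the nodules, against 3976, 4208 and 2911 FPKM in the livers, so that the gap was more than 10-fold between nodule 25 and the other nodules. Cytosolic ribosomal protein genes rose in 19 of 24 with a median of 0.61, in 9 after median-of-ratios scaling and in 23 with equal sums. They rose in 8 without liver 2 and in 11 without liver 3. Rplp0 had 366, 320.1 and 305 FPKM in the nodules, against 205, 172 and 162 FPKM in the livers (log2 difference 0.88 ± 0.16, limma adjusted p 0.00335).

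Several growth factors and their receptors were higher. Of 25 receptor tyrosine kinases and ligands, 12 rose and 2 fell without the filter, with a median log2 difference of 0.76. With the filter 14 of 21 rose and 1 fell, and 7 of those tested had every liver under 1 FPKM. Among ligands of the EGF receptor, Tgfa had 10.8, 12.5 and 15.7 FPKM in the nodules, against 2.98, 3.77 and 3.24 FPKM in the livers (log2 difference 1.68 ± 0.16, limma adjusted p 0.000201). Btc had 7.39, 5.07 and 3.52 FPKM in the nodules, against 0.338, 0.416 and 0.299 FPKM in the livers (log2 difference 2.18 ± 0.21, limma adjusted p 0.000202). Areg, amphiregulin, had 3.38, 1.63 and 1.55 FPKM in the nodules and was listed at 0 in each liver. Tgfa was higher in each nodule than in any liver, and Btc and Areg, with every liver under 1 FPKM, could only lie apart. The receptor itself, Egfr, had 46.7, 58.1 and 30.7 FPKM in the nodules, against 54.2, 83.9 and 21.5 FPKM in the livers, and the groups overlapped. Ddr1, a collagen receptor, had 4.78, 3.57 and 4.54 FPKM in the nodules, against 0.127, 0.182 and 0.293 FPKM in the livers (log2 difference 2.14 ± 0.14, limma adjusted p 3.24e-05). Fgfr2, a fibroblast growth factor receptor, had 7.92, 7.53 and 9.25 FPKM in the nodules, against 2.52, 2.47 and 2.44 FPKM in the livers (log2 difference 1.40 ± 0.13, limma adjusted p 0.000146). Fgfr2 was above the livers in each nodule, and Ddr1, with every liver under 1 FPKM, could only lie apart. Mst1r, the receptor of the liver-derived ligand Mst1, had 1.8, 2.38 and 3.69 FPKM in the nodules, against 0.027, 0.0411 and 0.0619 FPKM in the livers (log2 difference 1.76 ± 0.18, limma adjusted p 0.000277), and Mst1 rose too (log2 difference 0.79, limma adjusted p 0.0065). Mst1r too, with every liver under 1 FPKM, could only lie apart. Met and Fgfr4 did not pass, and Fgf1 was the member that fell (log2 difference -1.74, limma adjusted p 0.00173).

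Transcripts that the ERK pathway induces, most of them its own feedback inhibitors, rose in 10 of 14 and fell in 0 without the filter, with a median log2 difference of 0.81. The phosphatase Dusp5 had 8.97, 8.97 and 15.5 FPKM in the nodules, against 0.301, 0.123 and 0.658 FPKM in the livers (log2 difference 3.13 ± 0.24, limma adjusted p 6.47e-05). Dusp4 had 10.6, 5.65 and 7.84 FPKM in the nodules, against 0.417, 0.493 and 0.61 FPKM in the livers (log2 difference 2.55 ± 0.20, limma adjusted p 7.91e-05). Spred1, an inhibitor of Ras signalling, had 7.6, 7.25 and 6.36 FPKM in the nodules, against 2.18, 3.03 and 2.13 FPKM in the livers (log2 difference 1.23 ± 0.15, limma adjusted p 0.000556). Dusp5 and Dusp4 reached 1 FPKM through the nodules alone, so that their groups could only lie apart. Spred1 had livers above 1 FPKM, and its groups did not overlap. The ETS factor Etv5 had 2.91, 2.96 and 2.72 FPKM in the nodules, against 0.864, 1.06 and 0.871 FPKM in the livers (log2 difference 1.00 ± 0.11, limma adjusted p 0.000383). The inhibitors Spry1, Spry2, Spry4 and Spred2 rose as well, Spry1 losing its call without liver 2 and Spry4 under quantile normalization. Dusp6, a widely used readout of ERK activity, had 55.1, 23 and 54.8 FPKM in the nodules, against 50.2, 58.8 and 70.1 FPKM in the livers (log2 difference -0.51, limma adjusted p 0.266), and Phlda1, Epha2 and Myc did not pass either. Ccnd1, cyclin D1, had 10.8, 18.9 and 36 FPKM in the nodules, against 3.24, 5.67 and 3.96 FPKM in the livers (log2 difference 1.98 ± 0.39, limma adjusted p 0.0053), with nodule 25 more than 3 times nodule 8.

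In the insulin-like growth factor axis, the liver hormone fell and 5 of 7 Igfbp genes, which encode binding proteins, rose. Besides Igf1 and Igfals, given with growth hormone signalling, Igfbp1 had 1928, 1208 and 1275 FPKM in the nodules, against 258, 379.6 and 665 FPKM in the livers (log2 difference 1.83 ± 0.35, limma adjusted p 0.00475). Igfbp2 had 201, 142 and 228 FPKM in the nodules, against 92.1, 55.8 and 119 FPKM in the livers (log2 difference 1.13 ± 0.30, limma adjusted p 0.0197). Igf2r, the clearance receptor, had 7.57, 9.24 and 11.3 FPKM in the nodules, against 4.74, 4.33 and 4.56 FPKM in the livers (log2 difference 0.89 ± 0.16, limma adjusted p 0.00362). For all of these the nodules lay above the livers. The call of Igfbp2 was lost without nodule 8 or nodule 25 (limma adjusted p 0.0507 and 0.0551). That of Igfbp3 was lost without liver 2 or nodule 15 (limma adjusted p 0.064 and 0.0529). That of Igfbp7 was lost in several runs, among them median-of-ratios scaling (limma adjusted p 0.0854). Igfbp5 fell, with 0.193, 0.634 and 0.407 FPKM in the nodules, against 2.17, 2.08 and 1.82 FPKM in the livers (log2 difference -1.11 ± 0.14, limma adjusted p 0.000729). The adaptor Irs1 had 1.82, 1.54 and 1.9 FPKM in the nodules, against 3.57, 3.79 and 4.01 FPKM in the livers (log2 difference -0.80 ± 0.12, limma adjusted p 0.00161). Over the list 7 of 14 were higher and 4 lower. Insr, the insulin receptor, had 4.45, 14.8 and 23.2 FPKM in the nodules, against 8.92, 1.77 and 1.84 FPKM in the livers, and each group held both high and low samples. Among imprinted growth genes, 7 of 17 listed reached the filter. Mest and Grb10 rose (1.07 and 1.02 on the log2 scale), and Grb10 lost its call under quantile normalization (limma adjusted p 0.0517). YAP targets were divided, with 4 of 12 higher and 2 lower, and 2 higher without liver 2. Ajuba had 3.82, 6.77 and 6.23 FPKM in the nodules, against 1.39, 1.36 and 1.39 FPKM in the livers (log2 difference 1.44 ± 0.19, limma adjusted p 0.000808). Cyr61, the classical target, had 5.73, 6.1 and 8.83 FPKM in the nodules, against 36.6, 47.6 and 109.6 FPKM in the livers (log2 difference -2.92 ± 0.38, limma adjusted p 0.00073).

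Genes of mitosis were higher in the nodules, at low levels. Without the filter, 30 of 32 genes of G2 and mitosis were higher and 0 lower by limma, with a median log2 difference of 0.98. With it 18 were tested, and 17 of these reached 1 FPKM through the nodules alone, so that their groups could only lie apart. Mki67, the proliferation antigen Ki-67, had 2.38, 3.73 and 2.53 FPKM in the nodules, against 0.347, 0.551 and 0.299 FPKM in the livers (log2 difference 1.46 ± 0.16, limma adjusted p 0.000336). Top2a, topoisomerase II alpha, had 1.83, 1.86 and 1.88 FPKM in the nodules, against 0.217, 0.291 and 0.323 FPKM in the livers (log2 difference 1.16 ± 0.10, limma adjusted p 0.000128). Cenpa, the centromeric histone, had 2.54, 3.21 and 2.78 FPKM in the nodules, against 0.372, 0.341 and 0.319 FPKM in the livers (log2 difference 1.51 ± 0.12, limma adjusted p 6.8e-05). The nodules were close to each other and all above the livers. Ccnb1, cyclin B1, had 1.2, 2.3 and 1.23 FPKM in the nodules, against 0.0678, 0 and 0.0216 FPKM in the livers (log2 difference 1.297 ± 0.17, limma adjusted p 0.000781). The members named here were among those that reached the filter through the nodules. Of 31 G1/S and replication genes, 13 were higher and 3 lower without the filter. Of the 20 tested with it, 8 were higher and 2 lower, 4 and 3 under quantile normalization, and 5 were higher without liver 3. Ccne1, cyclin E1, had 2.67, 4.84 and 7.09 FPKM in the nodules, against 0.464, 0.143 and 0.169 FPKM in the livers (log2 difference 2.16 ± 0.27, limma adjusted p 0.000656). Pcna had 13.9, 8.58 and 10.9 FPKM in the nodules, against 11.8, 9.18 and 11.2 FPKM in the livers. Mcm10 had 0.565, 1.27 and 3.32 FPKM in the nodules, against 7.96, 9.31 and 10.5 FPKM in the livers (log2 difference -2.04 ± 0.33, limma adjusted p 0.0024). The S phase enzyme gene Rrm2 rose (log2 difference 1.05, limma adjusted p 0.00128) and Tk1 fell (log2 difference -0.81, limma adjusted p 0.00199).

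Promoters of mitotic genes are known to hold a cell cycle genes homology region (CHR), with the letters TTTGAA, which is bound by the DREAM and MuvB complexes, and CCAAT boxes, which are bound by NF-Y. Windows from 250 bases before to 50 bases after the start were taken from RefSeq on GRCm38.p6, 300 bases each, and both motifs were searched on both strands. Of 32 listed genes, 26 had 27 windows, and TTTGAA stood in 66.7% of them, against 17.9% of all 32851 windows and 14.3% of 28 windows of G1/S genes. CCAAT stood in 81.5% of the mitotic windows, 37.4% of all windows and 64.3% of the G1/S windows. Windows of the 6 mitotic genes with the smallest adjusted p among those with a window show the arrangement, 5′ to 3′ on the strand of the gene, with both motifs, or their reverse complements TTCAAA and ATTGG, in capitals.
Cenpa (chr5:30666636-30666935, plus strand): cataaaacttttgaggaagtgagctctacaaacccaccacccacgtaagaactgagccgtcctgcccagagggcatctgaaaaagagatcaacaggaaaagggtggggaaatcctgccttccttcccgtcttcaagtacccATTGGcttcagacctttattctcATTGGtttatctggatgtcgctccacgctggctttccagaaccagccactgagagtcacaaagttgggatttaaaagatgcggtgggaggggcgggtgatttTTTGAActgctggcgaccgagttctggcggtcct
Top2a (chr11:99024140-99024439, minus strand): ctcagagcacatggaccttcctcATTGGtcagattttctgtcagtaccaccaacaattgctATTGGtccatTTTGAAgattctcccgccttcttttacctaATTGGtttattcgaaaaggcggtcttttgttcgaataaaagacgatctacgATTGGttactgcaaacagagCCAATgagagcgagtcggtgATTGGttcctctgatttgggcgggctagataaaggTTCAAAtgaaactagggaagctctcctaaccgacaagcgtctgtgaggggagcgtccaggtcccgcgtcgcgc
Cdc20 (chr4:118437294-118437593, minus strand): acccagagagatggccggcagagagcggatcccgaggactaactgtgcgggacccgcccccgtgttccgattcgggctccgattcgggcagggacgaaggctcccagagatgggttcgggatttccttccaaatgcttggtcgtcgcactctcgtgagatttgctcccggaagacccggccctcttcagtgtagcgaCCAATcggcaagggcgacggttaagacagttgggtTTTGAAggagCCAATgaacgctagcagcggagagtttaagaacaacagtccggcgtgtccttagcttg
Aurka (chr2:172370521-172370820, minus strand): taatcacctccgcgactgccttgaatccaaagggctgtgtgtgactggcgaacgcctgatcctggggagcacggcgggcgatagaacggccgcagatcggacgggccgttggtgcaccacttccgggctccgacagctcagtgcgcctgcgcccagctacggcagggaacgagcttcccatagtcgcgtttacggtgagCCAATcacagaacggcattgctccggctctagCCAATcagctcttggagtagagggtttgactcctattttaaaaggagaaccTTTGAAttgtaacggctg
Birc5 (chr11:117848987-117849286, plus strand): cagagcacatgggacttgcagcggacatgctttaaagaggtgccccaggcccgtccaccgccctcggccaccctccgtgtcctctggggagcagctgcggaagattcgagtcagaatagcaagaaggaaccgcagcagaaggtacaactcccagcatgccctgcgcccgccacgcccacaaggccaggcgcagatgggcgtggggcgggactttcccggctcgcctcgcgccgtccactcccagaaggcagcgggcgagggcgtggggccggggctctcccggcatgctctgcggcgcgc
Mki67 (chr7:135716330-135716629, minus strand): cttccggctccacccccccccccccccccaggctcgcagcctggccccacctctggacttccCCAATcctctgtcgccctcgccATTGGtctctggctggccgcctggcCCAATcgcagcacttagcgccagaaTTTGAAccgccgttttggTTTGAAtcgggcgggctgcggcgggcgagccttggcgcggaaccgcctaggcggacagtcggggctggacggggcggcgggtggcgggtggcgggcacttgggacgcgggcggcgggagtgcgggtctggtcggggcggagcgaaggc
The TTTGAA of Cenpa and Aurka lay after the annotated start, with its first base at position 17 and 33, and that of Cdc20 before it, at -18. Top2a held 2, at -179 and -23, and 6 CCAAT boxes, the most of the 6 windows. Mki67 held 2, at -116 and -98. The Birc5 window held neither motif. A match is a match of letters and not a measured binding site. The levels of the genes whose windows hold both motifs were shown above for Cenpa, Top2a and Mki67. Cdc20, the activator of the anaphase-promoting complex, had 2.11, 3.57 and 3.27 FPKM in the nodules, against 0.306, 0.343 and 0.307 FPKM in the livers, the mitotic kinase Aurka had 1.9, 2.25 and 2.04 FPKM in the nodules, against 0.504, 0.532 and 0.457 FPKM in the livers. Birc5, survivin, had 2.05, 2.49 and 2.92 FPKM in the nodules, against 0.567, 0.47 and 0.379 FPKM in the livers.

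Targets of p53 were higher in 17 of 25 and lower in 3 without the filter, with a median log2 difference of 1.01. Of the 24 that reached it, 8 had every liver under 1 FPKM. Phlda3, an inhibitor of Akt, had 7.42, 10.5 and 20.4 FPKM in the nodules, against 0.307, 0.261 and 0.458 FPKM in the livers (log2 difference 3.25 ± 0.31, limma adjusted p 0.000169). Cdkn1a, the cyclin-dependent kinase inhibitor p21, had 63.9, 39 and 27.8 FPKM in the nodules, against 12.6, 7.53 and 19.2 FPKM in the livers (log2 difference 1.66 ± 0.37, limma adjusted p 0.0102). The death receptor Tnfrsf10b had 2.44, 1.62 and 2.85 FPKM in the nodules, against 0.0613, 0 and 0.122 FPKM in the livers (log2 difference 1.62 ± 0.16, limma adjusted p 0.000196), and Bax, of the mitochondrial death pathway, rose by a log2 difference of 1.14 (limma adjusted p 0.00234). Psrc1, Gtse1 and Ckap2 are both p53 targets and spindle proteins, and they rose with the mitotic genes. Gdf15, a stress-induced secreted factor, had 17.5, 9.92 and 17.3 FPKM in the nodules, against 40.7, 59.1 and 141 FPKM in the livers (log2 difference -2.20 ± 0.43, limma adjusted p 0.00557), and Fas and Plk3 were the other members that fell, Fas losing its call without any 1 of 5 samples. The p53 list thus held rises of cell cycle inhibitors, of death genes and of mitotic genes.

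**Figure D3:**
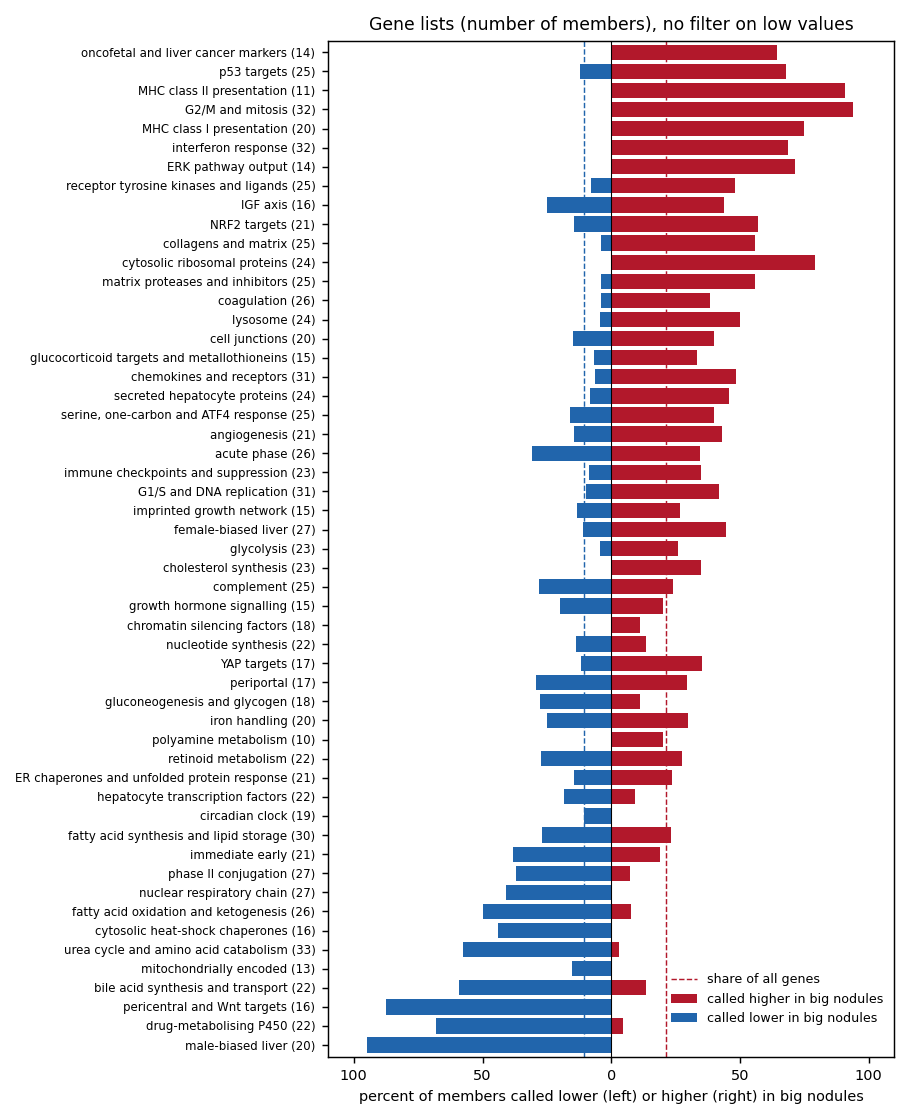
Bars give the percentage of members of each gene list called lower (blue, left) or higher (red, right) in big nodules than in normal livers without the filter, with the number of members with any FPKM above 0 in brackets and the lists ordered by median difference. Dashed lines mark the shares over all genes, 10.6% lower and 21.4% higher, and oncofetal markers stand at the top and male-biased genes at the bottom.

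Interferon-induced genes were higher in 21 of 30 and lower in 0, with a median log2 difference of 0.87 and 18 to 23 rises over the scalings. The deconjugating enzyme Usp18 had 13.3, 7.22 and 7.63 FPKM in the nodules, against 1.56, 1.53 and 1.78 FPKM in the livers (log2 difference 1.94 ± 0.22, limma adjusted p 0.000373). Oas1a, which senses double-stranded RNA, had 18.7, 6.78 and 17.6 FPKM in the nodules, against 1.78, 2.46 and 1.4 FPKM in the livers (log2 difference 2.32 ± 0.35, limma adjusted p 0.00156). Iigp1, an immunity-related GTPase, had 286, 301 and 212 FPKM in the nodules, against 90.1, 107 and 94.1 FPKM in the livers (log2 difference 1.43 ± 0.17, limma adjusted p 0.000567). MHC class I presentation genes rose in 15 of 20, or in 10 with 1 fall after median-of-ratios scaling and in 9 without liver 3. Nlrc5, the transactivator of these genes, had 7.4, 5.16 and 5.69 FPKM in the nodules, against 1.57, 1.78 and 1.9 FPKM in the livers (log2 difference 1.35 ± 0.15, limma adjusted p 0.000378). H2-Q7 had 55.1, 42.1 and 60.2 FPKM in the nodules, against 12.3, 15.2 and 16.5 FPKM in the livers (log2 difference 1.76 ± 0.18, limma adjusted p 0.000238), and the class I heavy chain genes are near copies of each other. B2m, their shared light chain, had 1935, 1666 and 1327 FPKM in the nodules, against 1259.6, 1552 and 1154 FPKM in the livers (log2 difference 0.31, limma adjusted p 0.275). For MHC class II, 7 of 7 tested genes rose, and nodule 15 was the lowest nodule in each, against 31.0% of all genes tested. H2-Aa had 32.6, 26.8 and 56.6 FPKM in the nodules, against 8.13, 14.6 and 11.4 FPKM in the livers (log2 difference 1.64 ± 0.30, limma adjusted p 0.00395). Cd74, the invariant chain, had 129.9, 96 and 259.8 FPKM in the nodules, against 33.1, 73.9 and 57.6 FPKM in the livers (log2 difference 1.49 ± 0.40, limma adjusted p 0.0226), and lost its call without liver 2. Markers of macrophages moved in the same direction, with a summed level of 276, 254 and 239 FPKM in the nodules and 109.8, 139.6 and 109 FPKM in the livers, and 7 of 9 tested were higher. Their part in the class II result was not tested.

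Among chemokines, Ccl9 had 71, 50.9 and 38.7 FPKM in the nodules, against 14.1, 14.4 and 16.4 FPKM in the livers (log2 difference 1.73 ± 0.22, limma adjusted p 0.00064). Cxcl9, which attracts T cells, had 34.7, 9.38 and 41.8 FPKM in the nodules, against 2.27, 4.42 and 3.11 FPKM in the livers (log2 difference 2.59 ± 0.50, limma adjusted p 0.00497), with nodule 15 lowest. Cxcl1, a neutrophil attractant, had 72.8, 25.7 and 22.6 FPKM in the nodules, against 6.77, 12 and 5.61 FPKM in the livers (log2 difference 2.04 ± 0.44, limma adjusted p 0.00895). All nodules exceeded all livers for these chemokines. Cxcl12 had 5.28, 6.49 and 4.96 FPKM in the nodules, against 42.7, 30.2 and 23.7 FPKM in the livers (log2 difference -2.30 ± 0.22, limma adjusted p 0.000167). Its receptor Cxcr4 had 4.22, 2.55 and 3.94 FPKM in the nodules, against 0.466, 0.902 and 0.661 FPKM in the livers (log2 difference 1.44 ± 0.18, limma adjusted p 0.000656). Over the list 15 of 31 were higher and 2 lower without the filter, and 8 of 13 were higher and 1 lower with it. Among checkpoint genes 6 of 15 were higher and 2 lower, and 3 were higher without liver 2. The ligand Pvr had 4.91, 3.92 and 4.15 FPKM in the nodules, against 1.24, 1.11 and 1.4 FPKM in the livers (log2 difference 1.24 ± 0.13, limma adjusted p 0.00027). Sirpa, the receptor of Cd47, had 6.19, 8.33 and 11.7 FPKM in the nodules, against 2.36, 1.04 and 0.876 FPKM in the livers (log2 difference 2.02 ± 0.28, limma adjusted p 0.00102). Cd274, the ligand of PD-1, had 1.51, 1.09 and 1.14 FPKM in the nodules, against 0.455, 0.578 and 0.667 FPKM in the livers (log2 difference 0.52 ± 0.12, limma adjusted p 0.0131), and its call was lost without liver 2 (limma adjusted p 0.0604). Cd274 and Cxcr4, with every liver under 1 FPKM, could only lie apart. The receptors Pdcd1, Ctla4, Havcr2 and Tigit stayed below the filter. T cell markers summed to 5.31, 3.36 and 14.8 FPKM in the nodules and 2.82, 3.1 and 2.45 FPKM in the livers, nodule 25 being highest, and 0 of 9 reached the filter.

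Complement, coagulation and acute phase genes did not move as whole groups. In complement, 6 of 25 were higher (24.0%, against 22.7% of all genes) and 7 lower (28.0%, against 13.3%). C6, of the membrane attack complex, had 15.4, 23.8 and 20 FPKM in the nodules, against 98.8, 105 and 71.6 FPKM in the livers. C9, of the same complex, had 81.1, 78.4 and 82.7 FPKM in the nodules, against 323, 373 and 283 FPKM in the livers. Mbl1, mannose-binding lectin, had 25.9, 36.8 and 40.8 FPKM in the nodules, against 132, 116 and 134 FPKM in the livers (log2 difference -1.87 ± 0.19, limma adjusted p 0.00022). C1qa, C1qb and C1qc, which macrophages make, rose, and they are themselves on the list of macrophage markers. In coagulation, 10 of 25 rose and 1 fell. F11 had 157, 161 and 143 FPKM in the nodules, against 39.4, 48.2 and 38.3 FPKM in the livers (log2 difference 1.85 ± 0.14, limma adjusted p 7.25e-05). Serpinf2, the plasmin inhibitor, had 682, 536 and 596 FPKM in the nodules, against 205, 177 and 223 FPKM in the livers (log2 difference 1.58 ± 0.16, limma adjusted p 0.000242). Acute phase genes were higher in 10 of 26 and lower in 8, or in 5 without nodule 15 or liver 3. Lcn2, a siderophore-binding protein, had 153, 172 and 113 FPKM in the nodules, against 38.3, 9.77 and 1.72 FPKM in the livers (log2 difference 3.79 ± 0.81, limma adjusted p 0.00847). The interleukin-1 antagonist Il1rn had 11.8, 5.25 and 6.33 FPKM in the nodules, against 0.143, 0.0644 and 0.33 FPKM in the livers (log2 difference 2.83 ± 0.26, limma adjusted p 0.000144). Saa1, serum amyloid A, had 4.8, 4.69 and 7.41 FPKM in the nodules, against 239, 74.1 and 13.5 FPKM in the livers (log2 difference -3.29 ± 0.86, limma adjusted p 0.0192). The livers differed widely in Saa1, and its call was lost without liver 3 or nodule 15. Each liver was above each nodule for Saa1 and below each for Lcn2. Il1rn, with every liver under 1 FPKM, could only lie apart. Hamp, hepcidin, which limits iron export, had 248, 126 and 71.1 FPKM in the nodules, against 998, 1395 and 800.0 FPKM in the livers (log2 difference -2.98 ± 0.42, limma adjusted p 0.00122). Hamp2 had 1.21, 0.95 and 1.14 FPKM in the nodules, against 23.6, 19.7 and 69.9 FPKM in the livers (log2 difference -3.98 ± 0.42, limma adjusted p 0.000271). Id1, which bone morphogenetic proteins induce together with hepcidin, rose, with 25.9, 26.9 and 38.7 FPKM in the nodules, against 2.06, 4.23 and 5.37 FPKM in the livers (log2 difference 2.73 ± 0.28, limma adjusted p 0.000266).

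Matrix and vessel genes rose in part. Collagens and matrix proteins were higher in 12 of 20 and lower in 0, with 9 to 13 rises over the scalings. The basement membrane chain Col4a1 had 30.2, 30.1 and 34 FPKM in the nodules, against 6.63, 5.97 and 7.77 FPKM in the livers (log2 difference 2.06 ± 0.14, limma adjusted p 4.09e-05). The matricellular protein Sparc had 49.3, 50.9 and 44.6 FPKM in the nodules, against 12.5, 12.4 and 13.6 FPKM in the livers (log2 difference 1.83 ± 0.13, limma adjusted p 4.21e-05). Col1a1, of fibrillar collagen, had 5.03, 9.06 and 13.3 FPKM in the nodules, against 0.604, 2.23 and 1 FPKM in the livers (log2 difference 2.13 ± 0.35, limma adjusted p 0.00256), with nodule 8 lowest. Each of these was higher in every nodule than in any liver. Stellate cell and fibroblast markers were 87.3, 127 and 116 FPKM in the nodules and 81.2, 93.9 and 91.5 FPKM in the livers in sum, with 5 higher and 3 lower of 14 tested, and the quiescent marker Lrat had 1.87, 2.52 and 1.05 FPKM in the nodules, against 3.41, 2.56 and 2.85 FPKM in the livers. In bulk tissue, fewer cells of a type and less RNA per cell cannot be told apart. Among proteases and inhibitors, 14 of 25 rose and 1 fell without the filter, with Mmp14 at 15, 15.7 and 11.3 FPKM in the nodules, against 4.45, 4.05 and 5.5 FPKM in the livers (log2 difference 1.40, limma adjusted p 0.000552). Of 20 angiogenesis genes, 9 rose and 3 fell. Esm1, a proteoglycan of endothelial tip cells, had 48.6, 29.8 and 45.3 FPKM in the nodules, against 0.183, 0.339 and 1.34 FPKM in the livers (log2 difference 4.74 ± 0.29, limma adjusted p 2.82e-05). Angpt2, which destabilises vessels, had 3.15, 4.86 and 3.11 FPKM in the nodules, against 0.245, 0.261 and 0.241 FPKM in the livers (log2 difference 1.89 ± 0.16, limma adjusted p 0.000102). Apln, apelin, had 2.14, 2.16 and 1.51 FPKM in the nodules, against 0, 0 and 0.0292 FPKM in the livers (log2 difference 1.53 ± 0.13, limma adjusted p 9.1e-05). Angpt2 and Apln reached 1 FPKM through the nodules alone, so that their groups could only lie apart. For Esm1 the groups did not overlap. Vegfa had 29.7, 29.4 and 31.2 FPKM in the nodules, against 27.8, 27.5 and 29.2 FPKM in the livers (log2 difference 0.092, limma adjusted p 0.583). Endothelial markers summed to 169.7, 204 and 164 FPKM in the nodules and 111, 114 and 132 FPKM in the livers, a smaller step than that of Esm1.

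**Figure D4:**
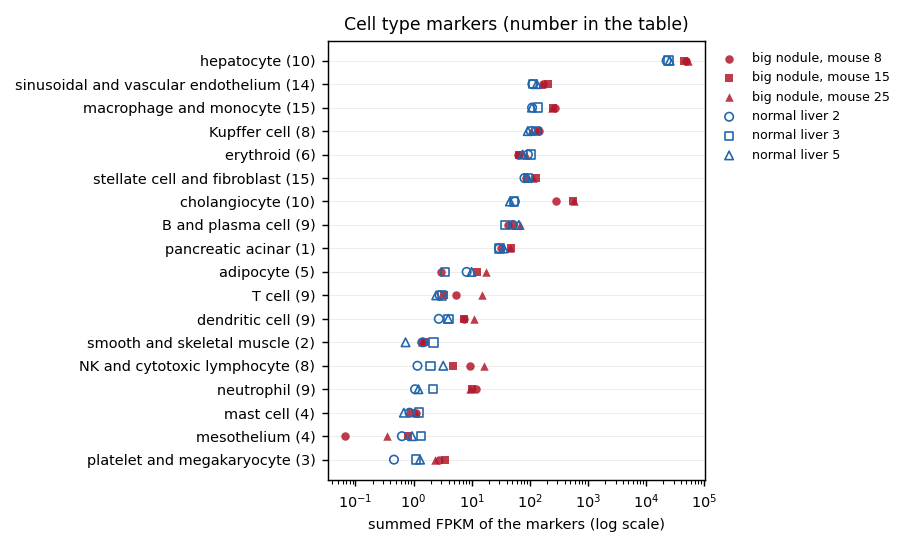
Summed FPKM of the markers of each cell type, on a log scale, with the number of markers in the table in brackets, big nodules as filled and normal livers as open symbols. The cholangiocyte sum lies between 285.5 and 584 FPKM in the nodules and between 45.6 and 55.6 FPKM in the livers, and Tstd1 and Spp1 hold most of it in each sample.

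Bile duct markers rose through 2 genes. Spp1, osteopontin, had 49.7, 342 and 357 FPKM in the nodules, against 35.6, 37.7 and 28.8 FPKM in the livers (log2 difference 2.40 ± 0.68, limma adjusted p 0.0268), and its call was lost without any 1 of the livers, nodule 15 or nodule 25. Tstd1, a sulfurtransferase, had 223, 213 and 216 FPKM in the nodules, against 9.28, 7.06 and 8.59 FPKM in the livers (log2 difference 4.56 ± 0.14, limma adjusted p 1.05e-06). The duct keratins Krt7 and Krt19 were below the filter, Krt19 at 0.348, 0.366 and 0.984 FPKM in the nodules, against 0.841, 1.76 and 1.17 FPKM in the livers, and Epcam and Sox9 did not pass. Tstd1 was even over the nodules, while Spp1 in nodule 8 lay just above the livers and far below the other nodules. Junction genes moved both ways: 8 of 17 rose and 3 fell. Cdh1 rose, as given above, while Cdh2, N-cadherin, had 12.5, 12.7 and 10.7 FPKM in the nodules, against 20.6, 21.5 and 21.4 FPKM in the livers (log2 difference -0.78 ± 0.13, limma adjusted p 0.00231). The gap junction protein Gjb2 had 51.5, 59.1 and 54.2 FPKM in the nodules, against 134, 161 and 148 FPKM in the livers (log2 difference -1.41 ± 0.14, limma adjusted p 0.000192). Cldn14, a claudin, had 13.1, 10.9 and 11.9 FPKM in the nodules, against 2.81, 2.55 and 4.36 FPKM in the livers (log2 difference 1.64 ± 0.18, limma adjusted p 0.000356). Lysosomal genes rose in 12 of 24 and fell in 1. Cd63, a tetraspanin of late endosomes, had 71.4, 53.7 and 55.6 FPKM in the nodules, against 1.38, 1.82 and 1.57 FPKM in the livers (log2 difference 4.56 ± 0.16, limma adjusted p 1.81e-06). Hexa, a hexosaminidase, had 88.4, 84 and 69.4 FPKM in the nodules, against 23.9, 18.4 and 22.8 FPKM in the livers (log2 difference 1.85 ± 0.16, limma adjusted p 0.000117). Neutrophil markers summed to 11.8, 10.1 and 9.51 FPKM in the nodules, against 1.06, 2.14 and 1.21 FPKM in the livers, with Ly6g at 0 in all 6 samples.

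Heat-shock and immediate early genes fell in part, and metallothioneins rose. Cytosolic heat-shock chaperones were lower in 8 of 16 and higher in 0, with 5 to 12 falls over the scalings, 5 without nodule 15 and 3 without liver 2 or liver 3. Hspb1, a small heat-shock protein, had 14.9, 13.2 and 14.5 FPKM in the nodules, against 47, 70.3 and 50.9 FPKM in the livers (log2 difference -1.89 ± 0.17, limma adjusted p 0.00015). Bag3, a co-chaperone, had 14.1, 13.1 and 19.7 FPKM in the nodules, against 64, 65.8 and 28.6 FPKM in the livers (log2 difference -1.62 ± 0.32, limma adjusted p 0.00589). Nodule 15 was the lowest nodule for 13 of the 16, against 31.0% of all genes tested. Hsph1 was at 18, 3.18 and 17.9 FPKM in the nodules, against 38.6, 55.3 and 25.6 FPKM in the livers. Immediate early genes were lower in 7 of 18 (38.9%, against 13.3% of all genes) and higher in 4 (22.2%, against 22.7%). Fos had 3.72, 1.42 and 3.13 FPKM in the nodules, against 27.4, 25.3 and 42.8 FPKM in the livers (log2 difference -3.14 ± 0.29, limma adjusted p 0.00015). Egr1 had 19.3, 13.5 and 19.8 FPKM in the nodules, against 80.7, 95 and 145 FPKM in the livers (log2 difference -2.52 ± 0.24, limma adjusted p 0.000192). Ier3 had 5.85, 9.07 and 9.34 FPKM in the nodules, against 0.465, 0.272 and 1.21 FPKM in the livers (log2 difference 2.48 ± 0.25, limma adjusted p 0.000208). Liver 5 was the highest of the 6 samples for Fos, Egr1, Jun and Ier2. Mt1, a zinc-binding metallothionein, had 269, 363 and 159 FPKM in the nodules, against 32.8, 36.6 and 65.5 FPKM in the livers (log2 difference 2.51 ± 0.35, limma adjusted p 0.00108). Its neighbour Mt2 had 409.9, 639 and 141 FPKM in the nodules, against 22.4, 14 and 20.7 FPKM in the livers (log2 difference 4.09 ± 0.50, limma adjusted p 0.000556). Nodule 15 was highest and nodule 25 lowest for both, and all nodules exceeded all livers. Fkbp5, a glucocorticoid target, had 23.7, 31.2 and 36.2 FPKM in the nodules, against 4.17, 5.15 and 4.52 FPKM in the livers (log2 difference 2.47 ± 0.18, limma adjusted p 4.94e-05), while the targets Tsc22d3, Per1 and Sgk1 did not pass. Sgk1 was high in a single nodule, with 39.1, 6.45 and 5.18 FPKM.

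The nodules differed among themselves more than the livers did. The median SD over genes was 0.197 log2 units in the nodules and 0.154 in the livers, and it was larger in the nodules for 61.4% of the genes. Pearson correlations across genes were 0.957 to 0.968 between nodules and 0.978 to 0.986 between livers, and 0.837 to 0.870 between a nodule and a liver. Genes are not independent replicates, and these correlations describe the libraries. Nodule 8 was most often the lowest among genes that fell: of the 192 genes that fell at least 4-fold, it was the lowest nodule in 149, against 22 for nodule 15 and 20 for nodule 25. Over all genes tested it was lowest in 36.3%, nodule 15 in 31.0% and nodule 25 in 32.7%. No such order held for the 243 genes that rose at least 4-fold, with counts of 84, 78 and 81. At least 4-fold below both other nodules lay 23 genes in nodule 8, 6 in nodule 15 and 5 in nodule 25.

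Single genes were on in some nodules and off in others. Vnn1, a pantetheinase of hepatocytes, had 0.243, 35.3 and 37.3 FPKM in the nodules, against 15.1, 11.2 and 17.1 FPKM in the livers. Nodules 15 and 25 were above every liver, and nodule 8 was below every liver. Kctd12, a potassium channel tetramerisation domain protein, had 30.8, 38.3 and 0 FPKM in the nodules, against 2.22, 2.95 and 2.22 FPKM in the livers, and nodule 25 alone was at 0. Dbp, a clock-controlled transcription factor, had 0.331, 24.1 and 81.9 FPKM in the nodules, against 0.665, 1.16 and 1.08 FPKM in the livers. Nodule 8 was the lowest sample for Dbp, and the other nodules were above every liver. Hist2h2aa1, a replication-type histone, had 0.0688, 58.2 and 69.8 FPKM in the nodules, against 48.2, 23.8 and 52.3 FPKM in the livers. Rdh16f1, a retinol dehydrogenase, had 1.68, 51.7 and 12.6 FPKM in the nodules, against 8.28, 5.32 and 3.89 FPKM in the livers. These genes were not called, and their nodules lay on both sides of the livers. Without nodule 8, Dbp had a log2 difference of 4.54 (limma adjusted p 0.000376), and Vnn1 had a log2 difference of 1.29 (limma adjusted p 0.00274), against -0.35 with all samples. Without nodule 25, Kctd12 had a log2 difference of 3.36 (limma adjusted p 4.21e-05). In each of these fits the nodule left out was the one that stood apart for that gene. It was thus chosen from the same values, and these adjusted p-values are not tests.

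**Figure D5:**
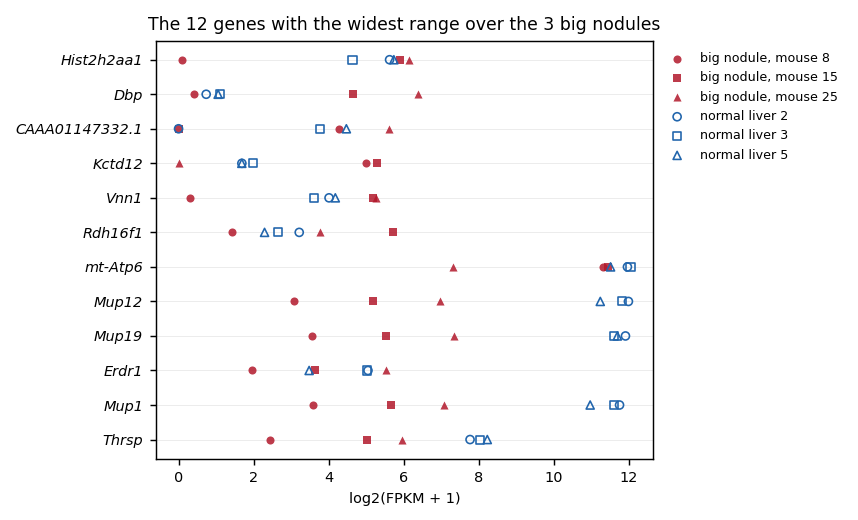
Levels on the log2(FPKM + 1) scale of the 12 genes with the widest range over the 3 big nodules among genes with at least 20 FPKM in the highest, 1 gene a row, with big nodules as filled and normal livers as open symbols. Nodule 8 is the lowest nodule for Hist2h2aa1, Dbp, Vnn1, Rdh16f1, Erdr1, Thrsp and the 3 Mup genes, and nodule 25 for Kctd12 and mt-Atp6.

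Most clock genes had nodule 15 between the other nodules, 14 of 16 tested, the exceptions being Hlf and Bhlhe40. It was so for 15 of 20 male-biased, 12 of 20 glycolytic and 0 of 13 mitochondrially encoded genes. The share over all genes was not counted, so that the count cannot be called particular to clock genes. Dbp, Tef, Nr1d1, Nr1d2, Per2 and Per3, which were picked after their values were seen and peak in the same part of the daily cycle, were lowest in nodule 8 and highest in nodule 25, as for Nr1d1, the repressor REV-ERB alpha, with 7.29, 27.6 and 53.5 FPKM in the nodules, against 6.32, 15.3 and 5.76 FPKM in the livers. Arntl (BMAL1), Npas2, Cry1 and Nfil3, which peak in the opposite part, had the reverse order, as for Arntl with 8.55, 2.8 and 0.332 FPKM in the nodules, against 5.13, 4.64 and 6.41 FPKM in the livers. The livers lay closer together, with Arntl between 4.64 and 6.41 FPKM. Of 16 clock genes tested, 2 were lower and 0 higher with all samples, and 5 were higher and 3 lower without nodule 8. Without nodule 15 or nodule 25, 0 were higher. The labels give no time of day for any sample. Nfil3 had 26.2, 10.8 and 5.88 FPKM in the nodules, against 51.1, 43.9 and 73 FPKM in the livers (log2 difference -2.10 ± 0.45, limma adjusted p 0.0088).

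No gene passed between big nodules and the small nodules of the same mice, which does not show that they were alike. Of 10415 genes tested by limma, 0 passed (0.0%), with 417 at an unadjusted p under 0.05 and a smallest adjusted p of 0.0929. With the mouse as a block, 0 passed as well, with 763 at an unadjusted p under 0.05. Afp had 173, 149.8 and 90.6 FPKM in the big nodules and 32.1, 21.4 and 35.6 FPKM in the small nodules, and no call was made. Mup12 had 7.41, 35.3 and 124 FPKM in the big nodules and 59.5, 34.2 and 225 FPKM in the small nodules. Cd3e was at 0.506, 0.231 and 1.05 FPKM in the big and 0.167, 0.238 and 1.03 FPKM in the small nodules. AC149222.1, silent in the big nodules, had 15.9, 17.2 and 0.0934 FPKM in the small nodules of mice 8, 15 and 25, so that in mouse 25 both nodules lacked it. The loss of mitochondrially encoded FPKM in big nodule 25 was not shared by its small nodule, with 2.88% in the big and 7.97% in the small nodule.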

How the data were processed

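Per the labels' protocols, libraries of poly(A) RNA were made with a KAPA stranded kit and read on a NovaSeq instrument. FPKM per gene are given as the authors deposited them. FastQC 0.11.7, cutadapt, HISAT2 2.1.0, StringTie 1.3.3 and the build mm10 are named in the submitters' processing notes. FPKM hold no read counts, so sequencing depth is unknown and no counting interval is given. One row of the table had been emptied for this work. A table of transcripts was not used here. The columns name each nodule. Of the livers, columns 3 and 5 could be tied to their group but not to single titles.

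Genes with at least 1 FPKM in at least 3 of the 6 samples were tested on log2(FPKM + 1) with limma 3.58.1 in R 4.3.3 (lmFit, eBayes with trend, two-sided, Benjamini-Hochberg adjustment over all genes tested). Errors after ± are standard errors of that fit. The pseudocount of 1 understates differences of genes near 0. The fit was tested on simulated data. With 3 samples against 3, an exact permutation test of a single gene cannot go below p = 0.1.

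Gene lists and cell type markers came from textbook knowledge, with earlier results of these data known, and are described by counts and medians. Genes were named by rule: the 15 largest rises and falls among called genes without overlap whose higher group averaged 5 FPKM or more, up to 4 members of a list by adjusted p, the 12 widest ranges over nodules with a highest value of at least 20 FPKM, genes on or off by level, and a fixed set. Further list members are named after their values were seen. Big and small nodules with the same number come from the same mouse. Their deviations from the group means correlated at 0.307, 0.252 and 0.325 within mice and at -0.249 to -0.0365 between mice. Alternatives were other scalings, filters and pseudocounts, the small nodules in the fit, no trend, a block for the mouse, and leaving out each sample.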

Additional observations from a re-analysis of the deposited data

How the results depend on the processing

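FPKM are relative and 3 samples a group were compared, so the split of calls by direction is the value most open to choice. With a stricter filter, at least 5 FPKM, 1215 of 5678 genes tested rose, fewer mainly because fewer genes were tested. Leaving out 1 sample at a time gave 1671 to 2166 rises and 928 to 1274 falls. Of 255 genes named by rule that could be tested, 233 were called, 219 of them under every alternative run and 223 under every scaling. The rules picked mainly by a small adjusted p or a large difference, which favours calls that hold, so the counts do not describe calls at large. Further list members, named after their values were seen, are not in these counts, and several of them lost their calls. Vnn1 reversed without nodule 8, its log2 difference ranging from -1.18 without nodule 25 to 1.29 without nodule 8, against -0.35 with all samples. No paired analysis was possible because livers and nodules come from different mice. Between big and small nodules, the fit with the mouse as a block called 0 genes (smallest limma adjusted p 0.269). Leaving out 1 nodule at a time gave 0 to 1 rises and 0 falls, the 1 being Gm20431 without the small nodule of mouse 8, with a log2 difference of 4.37 (limma adjusted p 0.00309). The cause was not tested. Calls of Sms, mt-Co2 and mt-Nd3 were lost under several alternatives, each with 1 liver left out among them.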

Other observations

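Retinoid enzymes changed member by member. Aldh1a1, which makes retinoic acid, had 18.8, 33.1 and 41.6 FPKM in the nodules, against 324, 288 and 308 FPKM in the livers (log2 difference -3.33 ± 0.27, limma adjusted p 8.09e-05). Cyp26a1, which degrades retinoic acid and is induced by it, had 0.868, 3.49 and 1.54 FPKM in the nodules, against 26.2, 27.3 and 51.9 FPKM in the livers (log2 difference -3.63 ± 0.36, limma adjusted p 0.00022). The oxidising enzymes and Cyp26a1 were below every liver in each nodule. Adh4, an alcohol dehydrogenase that oxidises retinol, had 9.75, 12.2 and 14 FPKM in the nodules, against 134, 125 and 127 FPKM in the livers (log2 difference -3.33 ± 0.16, limma adjusted p 8.86e-06). Over the list, 5 of 18 genes were higher and 6 lower.

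In polyamine metabolism, Smox, spermine oxidase, had 6.96, 9.85 and 10.2 FPKM in the nodules, against 0.382, 0.313 and 0.391 FPKM in the livers (log2 difference 2.86 ± 0.16, limma adjusted p 1.87e-05), and Odc1, the first enzyme of synthesis, had 21.2, 15.3 and 24.4 FPKM in the nodules, against 25.8, 23.5 and 23.2 FPKM in the livers. Smox, with every liver under 1 FPKM, could only lie apart. Of 22 nucleotide synthesis genes, 3 were higher and 3 lower (13.6% each, against 22.7% and 13.3% of all genes). The purine enzyme Paics fell (log2 difference -0.88, limma adjusted p 0.00266), as did Ppat (log2 difference -0.81, limma adjusted p 0.00233). In the endoplasmic reticulum, Pdia6 and Hspa5 rose (1.03 and 0.75 on the log2 scale) while Hyou1 and Herpud1 fell. The 21 chaperone and unfolded protein response genes did not move 1 way. Of these, 5 were higher and 3 lower (23.8% and 14.3%, against 22.7% and 13.3% of all genes). Leaving out 1 sample gave 3 to 5 rises and 1 to 5 falls, and Hspa5 and Hyou1 each lost their call without some of the samples. Among chromatin silencing factors, Dnmt3a was the single call of 11 (log2 difference 0.85, limma adjusted p 0.0218), and it was lost under quantile normalization and without liver 2 or nodule 25 (limma adjusted p 0.0752, 0.0584 and 0.059).

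Chromosome medians of the log2 difference lay between -0.015 and 0.19. The highest was chromosome 15, where 123 of 419 genes rose (29.4%) and 46 fell. Its median was 0.119 in nodule 8, 0.184 in nodule 15 and 0.28 in nodule 25. The lowest was chromosome 13, where 65 of 377 genes rose and 66 fell. Genes of a chromosome are not replicates, and no test was made.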
